A study of Mus musculus with 6 samples.

Results

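The nuclear genes of the respiratory chain were examined in the mouse hippocampus after chronic cerebral hypoperfusion. They were chosen by symbol, as those beginning Nduf, Uqcr, Uqcc, Atp5, Cox4i, Cox5, Cox6, Cox7 or Cox8 together with Sdha, Sdhb, Sdhc, Sdhd, Cyc1 and Cycs. The rule uses no measured value, although it was set with earlier results of these data known. Of the 112 symbols that matched, 9 marked -ps (pseudogenes) were left out, which gave 103 genes of the 54752 in the count tables. A few subunits and regulators of ATP synthase listed under older symbols, such as Usmg5 and Atpif1, fall outside this rule. The RNA-seq libraries came from the entire right hippocampus of wild-type male C57BL/6 mice (C57BL/6 J in the methods), 14 weeks of age by the labels and 3 weeks after surgery. The BCAS mice (bilateral carotid artery stenosis, n = 3) carried a 0.16 mm microcoil on the right common carotid artery and one of 0.18 mm on the left. The Sham mice (n = 3) underwent the same operation without microcoils. There was 1 library per mouse, and the libraries held 29652456 to 35607098 counted reads, in which mates of a pair were counted separately.

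The respiratory chain sits in the inner mitochondrial membrane. Complex I takes electrons from NADH and complex II takes them from succinate, complex III passes them to the small mobile protein cytochrome c, and complex IV hands them to oxygen. Complexes I, III and IV pump protons out of the matrix, and ATP synthase, also called complex V, uses the returning protons to make ATP. Most subunits are encoded in the nucleus and imported, a small set is encoded by the mitochondrial genome, and assembly factors put the complexes together without staying in them. In brain, neurons carry a large share of this demand, since ion pumping after synaptic activity is paid for by oxidative metabolism.

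Transcripts of the respiratory chain were, on balance, modestly lower in BCAS mice. Of the 100 genes with enough counts to be tested, 39 fell and 2 rose, Cox6a2 and Cox6b2, at an adjusted p under 0.05 (edgeR's quasi-likelihood test with Benjamini-Hochberg adjustment over all 18617 tested genes). Over all tested genes, 13.2% were called lower and 18.0% higher. The median log2 fold change (BCAS against Sham) was -0.27 over the respiratory chain genes, a decrease of the level by 16.9%, with quartiles of -0.34 and -0.17, against 0.018 over all tested genes. The fold change was below 0 for 88 of the 100. Only Cox6b2 combined such a call with a log2 fold change beyond 1 in size, which 9.46% of all tested genes did. The 3 genes that were not tested, Cox8c, Ndufa11b and a second identifier named Atp5o, were filtered for low counts. In CPM (counts scaled to library size, with TMM normalization), all 3 BCAS mice lay below all 3 Sham mice for 57 of the 100 genes, above them for 3, and overlapped with them for 40. Over all tested genes these orders were found for 22.7% (below) and 25.3% (above).

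**Figure D1:**
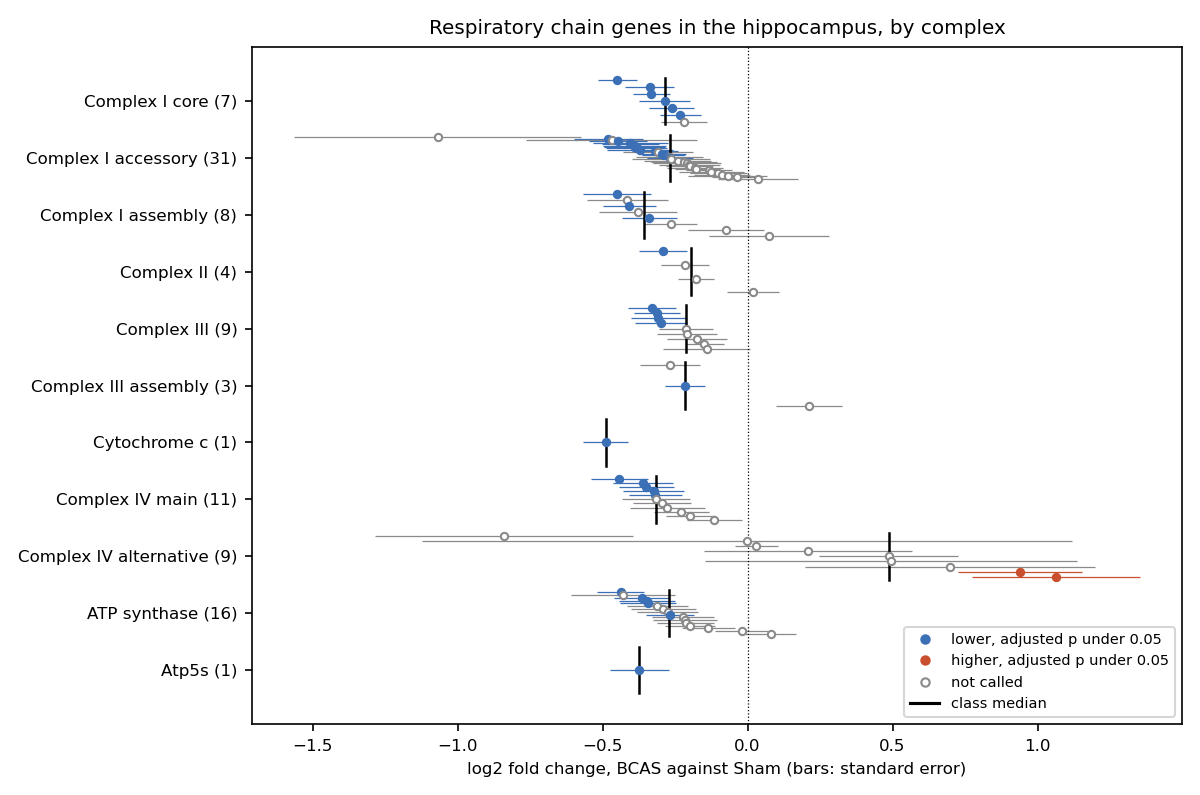
Each point is the log2 fold change of 1 gene in BCAS against Sham mice (x axis, n = 3 mice each) with its standard error, grouped by class with the number of tested genes in brackets. Filled blue points are called lower, filled red points higher, open points not called, and black lines are class medians: every class median lies below 0 except that of the alternative complex IV subunits, at 0.49.

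Together the 103 genes took 0.956 ± 0.0638% of all counts in Sham mice and 0.837 ± 0.0242% in BCAS mice (SD, n = 3). The shares were 0.888%, 0.965% and 1.01% in Sham mice 1, 2 and 3, and 0.843%, 0.858% and 0.811% in BCAS mice 1, 2 and 3. The groups did not overlap, which gave p = 0.1 in an exact two-sided permutation test, the smallest that 3 mice against 3 allow. A share of counts in bulk tissue cannot tell fewer cells of a type apart from less RNA per cell.

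Complex I is the largest of the complexes. Its core, the part that binds NADH and carries electrons along iron-sulfur clusters, has 7 nuclear subunits. All 7 were lower in every BCAS mouse than in any Sham mouse, and 6 were called, with a median log2 fold change of -0.29. Over all tested genes 22.7% had this order and 13.2% were called lower, and these shares apply to the class counts below as well. Ndufv2 (ENSMUSG00000024099.15, chr17:66078638-66101559, mm10), an iron-sulfur subunit of the NADH-oxidizing tip, had the smallest adjusted p of all respiratory chain genes. Its level was 116, 116 and 127 CPM in Sham mice 1 to 3 and 88.3, 87.2 and 87.6 CPM in BCAS mice 1 to 3. All BCAS values sat well below the Sham values and close to each other. The log2 fold change was -0.45 (standard error 0.07, edgeR adjusted p = 0.00155). Ndufs8, which carries a pair of iron-sulfur clusters, was the core subunit that was not called, at -0.22 (edgeR adjusted p = 0.0626).

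The accessory subunits surround this core and are needed for its stability and assembly. Of 31 tested, 12 fell and 30 were below 0, with a median log2 fold change of -0.27. Ndufa5, an accessory subunit of the matrix arm, measured 44.5, 45.1 and 50.4 CPM in Sham mice and 33.9, 38.0 and 30.8 CPM in BCAS mice. The groups were apart, and BCAS mouse 3 was the lowest. Its log2 fold change was -0.45 (standard error 0.10, edgeR adjusted p = 0.0102). Ndufa8, the accessory subunit with the highest Sham level per length (90.0 FPKM, reads per kilobase of gene length, scaled to library size), fell by 0.29 on the log2 scale (edgeR adjusted p = 0.0258). Ndufa2 stood at the other end at 0.04, with overlapping groups and Sham mouse 1 as the lowest of all 6. The most negative fold change of the class, -1.07 for Ndufs6b, rested on 7 to 26 counts per library and was not called (edgeR adjusted p = 0.134). Ndufb4c, at -0.47, had 30 to 73 counts per library and was not called (edgeR adjusted p = 0.264). All stretches of 100 bases of its transcript also occur in other genes. Ndufs6b and Ndufb4c are in the class by symbol, and whether they yield subunits of the complex was not examined.

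Assembly factors build complex I in steps. Of 8 tested, 3 fell (13.2% of all tested genes did) and the median was -0.36. All BCAS mice were below all Sham mice for 6 (22.7% of all tested genes). Ndufaf4 (ENSMUSG00000028261.13, chr4:24898083-24905001, mm10) measured 40.8, 37.8 and 38.1 CPM in Sham mice and 32.0, 29.0 and 27.1 CPM in BCAS mice. Here Sham mouse 1 was the highest Sham mouse, unlike in most other genes of the chain. The log2 fold change was -0.41 (standard error 0.09, edgeR adjusted p = 0.0106). Ndufaf5, a methyltransferase-like factor that modifies a core subunit, fell by 0.45 on the log2 scale (edgeR adjusted p = 0.0186), and Ndufaf3, a factor of early assembly, by 0.34 (edgeR adjusted p = 0.0249). Ndufaf6 was at 0.07, with a standard error of 0.21 at a Sham level of 6.16 CPM.

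Complex II, the succinate dehydrogenase shared with the citric acid cycle, is encoded wholly in the nucleus. Of its 4 subunits, 1 was called and the median log2 fold change was -0.20. Sdhb, the iron-sulfur subunit, measured 109, 113 and 129 CPM in Sham mice and 91.0, 99.0 and 96.4 CPM in BCAS mice. Its groups did not overlap, and its log2 fold change was -0.29 (standard error 0.08, edgeR adjusted p = 0.0270). Sdha, the flavoprotein that oxidizes succinate and the most abundant subunit of the complex per length (99.5 FPKM in Sham mice), was at -0.22 (edgeR adjusted p = 0.0796). Sdhc, which anchors the enzyme in the membrane, was at 0.02, and its Sham values of 79.8, 86.5 and 95.8 CPM overlapped BCAS values of 93.9, 81.8 and 90.0 CPM.

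In complex III, 4 of 9 subunits fell and all 9 were below 0, with a median log2 fold change of -0.21. Uqcrc2, a core protein of the matrix face, measured 164, 180 and 197 CPM in Sham mice and 141, 146 and 143 CPM in BCAS mice. The Sham mice spread more widely than the BCAS mice, and the groups did not overlap. The log2 fold change was -0.33 (standard error 0.08, edgeR adjusted p = 0.0159). Uqcrfs1, the Rieske iron-sulfur protein and the most abundant subunit per length (106 FPKM in Sham mice), fell by 0.31 (edgeR adjusted p = 0.0174). Uqcr11, a small subunit, was at -0.14 with overlapping groups. Of the 3 assembly factors, Uqcc1 fell by 0.21 (edgeR adjusted p = 0.0423), Uqcc2 was at -0.27 (edgeR adjusted p = 0.0820), and Uqcc3 was at 0.21 (edgeR adjusted p = 0.191). Uqcc3 had 9.02, 9.72 and 9.70 CPM in Sham mice against 10.9, 11.0 and 11.0 CPM in BCAS mice. It was thus the third gene, beside Cox6a2 and Cox6b2, whose BCAS mice all exceeded all Sham mice.

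Cycs (ENSMUSG00000063694.5, chr6:50562563-50566538, mm10) encodes somatic cytochrome c, which carries electrons between complexes III and IV and, once released from mitochondria, starts the apoptotic caspase cascade. It measured 104, 107 and 119 CPM in Sham mice 1 to 3. In BCAS mice 1 to 3 it measured 78.1, 82.5 and 75.0 CPM, with no overlap. The log2 fold change of -0.49, a decrease of 28.7%, was the most negative of all genes called lower in the chain (standard error 0.08, edgeR adjusted p = 0.00204). Of its 100-base windows, 22.6% also occur in transcripts of other genes, and since reads mapping to several places were not counted, its level may be understated.

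Complex IV has subunits found in all tissues and alternative forms that are restricted to some tissues or states. Of the 11 main subunits, counting Ndufa4, which was first assigned to complex I and is now placed in complex IV, 5 fell (Ndufa4, Cox5a, Cox5b, Cox7b and Cox7c) and all 11 were below 0, with a median of -0.32. Ndufa4 measured 135, 158 and 163 CPM in Sham mice and 116, 119 and 101 CPM in BCAS mice. Sham mouse 1 was nearest to the BCAS mice, and the groups did not overlap. The log2 fold change was -0.44 (standard error 0.10, edgeR adjusted p = 0.00960). Cox8a, a small structural subunit, had the highest level per length of all genes of the chain, at 592 ± 61.5 FPKM (SD, n = 3) in Sham mice. It was at -0.32 with a standard error of 0.12 and was not called (edgeR adjusted p = 0.0729). Cox4i1, which regulates the enzyme in response to ATP, was the main subunit nearest to 0, at -0.11 with overlapping groups.

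The 9 tested alternative forms and paralogs of complex IV subunits included none that was called lower and 2 that were called higher (18.0% of all tested genes were), and their median was 0.49. They did not share a direction, since Cox6c2, a gene close to Cox6c in sequence, had the most negative value of the class. It had 24, 26 and 43 counts in the Sham libraries against 20, 8 and 20 in the BCAS libraries, with every BCAS mouse below every Sham mouse in CPM. Its log2 fold change was -0.84 (standard error 0.44) and was not called (edgeR adjusted p = 0.184). Of its windows of 100 bases, 34.8% also occur in other genes, so its counts are uncertain. Both called genes had low levels. Cox6a2 (ENSMUSG00000030785.8, chr7:128205435-128206387, mm10), the form of subunit 6A of heart and skeletal muscle, which is also found in parvalbumin interneurons, had 3.36, 2.48 and 3.96 CPM in Sham mice and 5.41, 7.06 and 6.34 CPM in BCAS mice. Every BCAS mouse exceeded every Sham mouse, and the log2 fold change was 0.94 (standard error 0.21, edgeR adjusted p = 0.0110). Its exons share 10.3% of their bases with Itgad, an integrin gene, and strand was ignored in counting. Itgad had 4 to 11 counts in any library against 83 to 213 for Cox6a2, and the part of reads from Itgad in the result was not tested. Cox6a2 kept its call without any 1 of the 6 libraries.

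Cox6b2 (ENSMUSG00000051811.14, chr7:4751792-4753094, mm10), best known as the testis form of subunit 6B, had 2.30, 2.81 and 1.78 CPM in Sham mice 1 to 3 and 5.20, 3.11 and 6.09 CPM in BCAS mice 1 to 3. The groups were apart, with BCAS mouse 2 close to Sham mouse 2. The log2 fold change was 1.06 (standard error 0.29, edgeR adjusted p = 0.0226). Choroid plexus markers differed strongly between mice within both groups. Their median log2 CPM, relative to the Sham mean, was 0.22, 2.32 and -2.71 in Sham mice 1 to 3 and 2.84, -2.64 and 1.99 in BCAS mice 1 to 3, and none of the 5 was called. Within the Sham group Cox6b2 had the order of these markers, and within the BCAS group its lowest mouse was also theirs. BCAS mouse 2, in which the markers were low, still had more Cox6b2 than Sham mouse 2, in which they were high, and the part of choroid plexus in the result was not tested. The call was lost without Sham mouse 1, Sham mouse 3, BCAS mouse 1 or BCAS mouse 3, with edgeR adjusted p of 0.0748, 0.0888, 0.0562 and 0.0782. Cox8b, the muscle form of subunit 8, had 6, 54 and 6 counts in the Sham libraries and 28, 0 and 34 counts in the BCAS libraries, so it too was highest in mice with high choroid plexus markers and gave no difference between the groups.

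**Figure D2:**
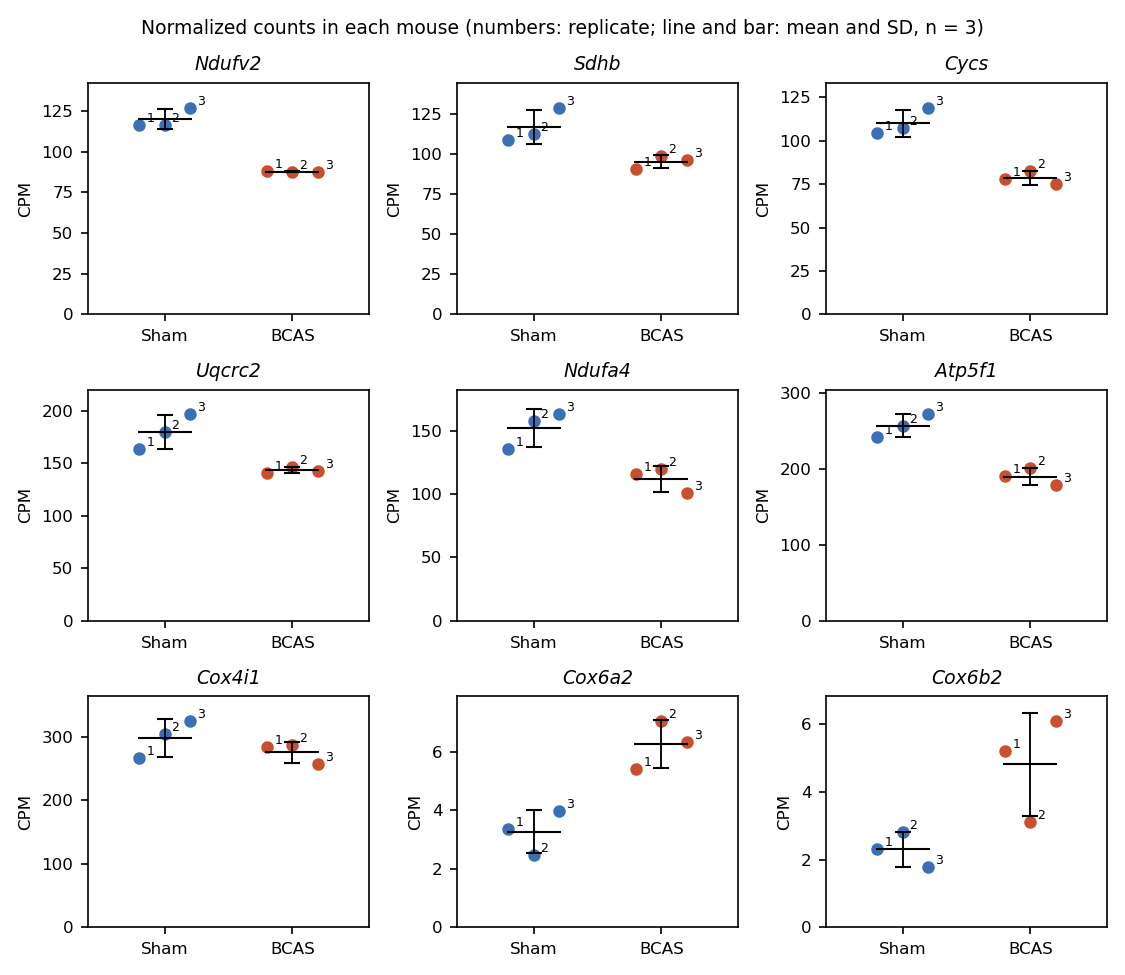
Normalized counts (CPM, y axes from 0) of 9 genes in each mouse, with the replicate number beside each point, and the mean and SD of 3 mice. Ndufv2, Sdhb, Cycs, Uqcrc2, Ndufa4 and Atp5f1 separate the groups downward and Cox6a2 and Cox6b2 upward, while the groups overlap for Cox4i1.

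For pairs of genes that encode alternative forms of the same subunit or close paralogs, the log2 ratio of their FPKM was compared in each mouse, over 9 pairs. Cox8b was left out for its count of 0 in 1 library. Cox6c2 to Cox6c was not among these pairs and was added, with no test, after its values were seen. The ratio of Cox6a2 to Cox6a1 was -6.07, -6.66 and -6.06 in Sham mice and -5.30, -5.02 and -4.91 in BCAS mice. All BCAS ratios were higher, by 1.19 on average, although Cox6a1 remained the far more abundant form. The ratio of Cox6b2 to Cox6b1 was 1.23 higher in BCAS mice and that of Ndufa4l2, a paralog known to be induced by hypoxia, to Ndufa4 was 0.96 higher, again without overlap. Ndufa4l2 itself was at 0.49 and not called (edgeR adjusted p = 0.157), with overlapping groups. Membrane ring subunit c of ATP synthase is encoded by the genes Atp5g1, Atp5g2 and Atp5g3, whose mature proteins are identical. The ratio of Atp5g2 to Atp5g3 was -1.47, -1.44 and -1.52 in Sham mice and -1.13, -1.03 and -0.94 in BCAS mice, a difference of 0.44 without overlap. The ratio of Atp5g1 to Atp5g3 differed by 0.016. The ratio of Cox6c2 to Cox6c was 0.62 lower on average in BCAS mice, at -3.62, -3.70 and -3.12 in Sham mice and -3.84, -4.90 and -3.55 in BCAS mice, with overlapping groups. For the 4 pairs without overlap the exact two-sided permutation test gave p = 0.1, the smallest possible here, or 0.225 when adjusted over the 9 pairs. For the other 5 pairs p was 0.2 or 0.5 in the same exact test. Of the 100-base windows of Atp5g2, 34.7% occur in other genes as well, so its level is uncertain.

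**Figure D3:**
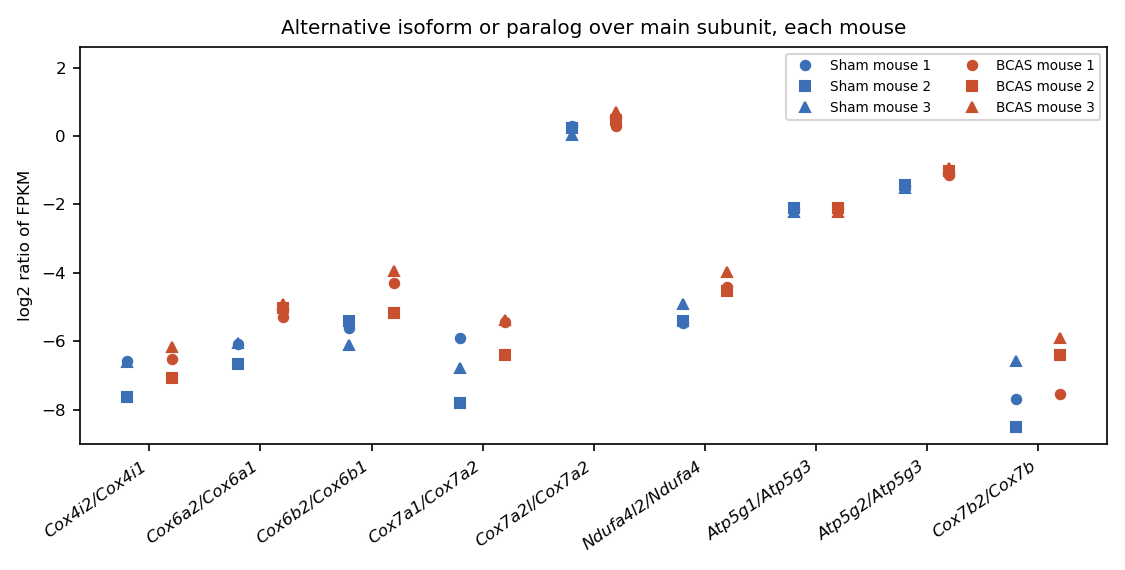
Log2 ratio of the FPKM of an alternative form or paralog to that of the main subunit (y axis) in each of the 6 mice, for 9 pairs. The ratios of Cox6a2/Cox6a1, Cox6b2/Cox6b1, Ndufa4l2/Ndufa4 and Atp5g2/Atp5g3 are higher in all BCAS mice than in all Sham mice, and those of Atp5g1/Atp5g3 lie together.

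Of 16 tested ATP synthase subunits, 5 fell and 15 were below 0, with a median log2 fold change of -0.27. Atp5f1 (ENSMUSG00000000563.17, chr3:105942698-105960099, mm10), subunit b of the stalk that holds the catalytic head still, measured 242, 256 and 271 CPM in Sham mice and 190, 200 and 178 CPM in BCAS mice. Every BCAS mouse was below every Sham mouse, and the log2 fold change was -0.44 (standard error 0.08, edgeR adjusted p = 0.00416). Atp5g3 fell by 0.36 (edgeR adjusted p = 0.0208) and Atp5g1 by 0.34 (edgeR adjusted p = 0.0265), while Atp5g2 was at 0.08 with overlapping groups. Atp5a1, the alpha subunit of the catalytic head and the most abundant of the complex per length (288 FPKM in Sham mice), had 820, 920 and 965 CPM in Sham mice and 733, 791 and 710 CPM in BCAS mice. These groups did not overlap, but the log2 fold change of -0.28 was not called (edgeR adjusted p = 0.0771). Atp5s, a factor related to coupling factor B, fell by 0.37 (edgeR adjusted p = 0.0227).

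Across classes, the assembly factors as a whole (4 of 11 called lower, median -0.27) and the subunits with cytochrome c but without the alternative complex IV forms (34 of 79 called lower, median -0.28) are given side by side here. With single genes and alternative forms aside, the share called lower ran from 1 of 4 in complex II to 6 of 7 in the complex I core. Over all tested genes it was 13.2%, and 1 of 4 is too few to set apart from this. The class medians ran from -0.20 to -0.36. Differences between classes were not tested.

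The mice of a group were not alike. The median level of the 100 genes, in log2 CPM relative to the Sham mean, was -0.12, 0.0077 and 0.11 in Sham mice 1, 2 and 3 and -0.22, -0.21 and -0.36 in BCAS mice 1, 2 and 3. All BCAS mice were below all Sham mice, yet the gap between Sham mouse 1 and BCAS mouse 2 was smaller than the spread among Sham mice. Sham mouse 1 was the lowest Sham mouse for 80 of the 100 genes, and BCAS mouse 3 the lowest of all 6 mice for 68. In the main complex IV subunits Sham mouse 1 stood at -0.16 beside -0.21 in both BCAS mice 1 and 2. In the complex III subunits Sham mouse 1 stood at -0.132 beside -0.135 in BCAS mouse 2. In the complex I core it stood at -0.05 beside -0.27 and -0.24 in BCAS mice 1 and 2. Genes of the chain are short, with a median length of 1501 bases against 3810 for all tested genes. With an offset for gene length 48 of them were called lower, against 15.7% of all tested genes. The 2565 other tested genes of at most 1501 bases had medians of -0.034 to 0.067 in the Sham mice and 0.028 to 0.064 in the BCAS mice.

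**Figure D4:**
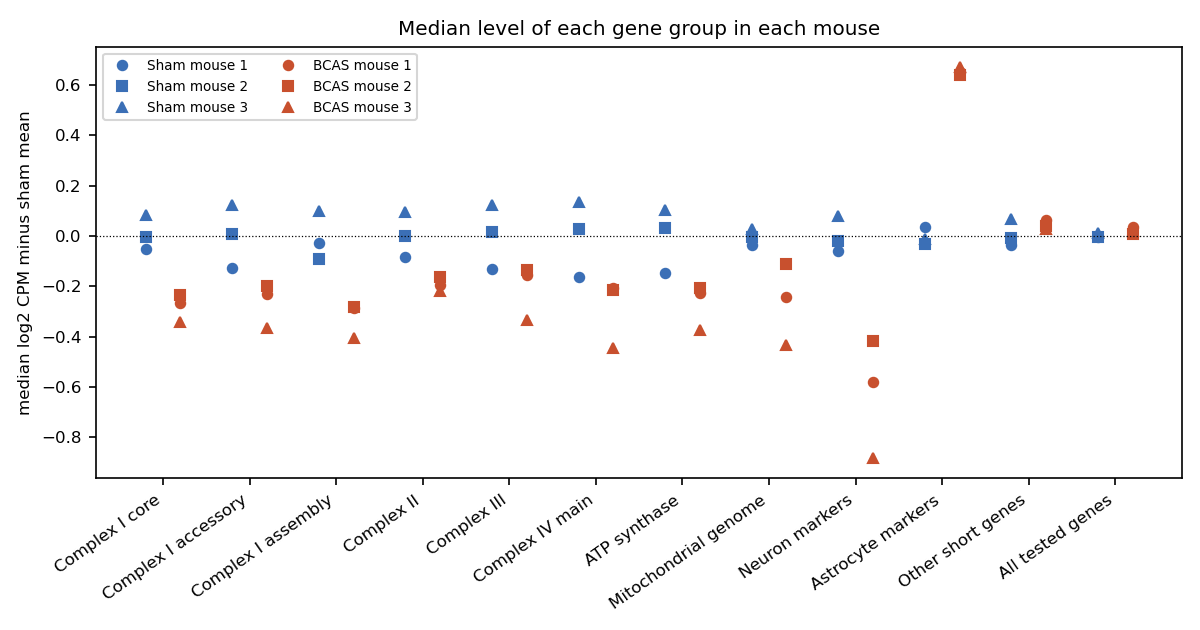
Median log2 CPM relative to the Sham mean (y axis) of the genes of each group in each mouse; blue symbols are Sham and red symbols BCAS mice. BCAS mice lie below Sham mice in every complex shown, and BCAS mouse 3 lies lowest. In complex III Sham mouse 1 (-0.132) and BCAS mouse 2 (-0.135) nearly touch. Neuron markers lie lower still, and other short genes and all tested genes stay near 0.

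Markers of cell types moved in the same libraries. Neuron markers were lower in BCAS mice, with 12 of 14 called, a median log2 fold change of -0.59, and medians per mouse of -0.06, -0.02 and 0.08 in Sham mice and -0.58, -0.42 and -0.88 in BCAS mice. BCAS mouse 3 was the lowest and BCAS mouse 2 the highest of the BCAS group both in these markers and in the respiratory chain genes. In the chain, however, BCAS mice 1 and 2 were close, at -0.22 and -0.21. Markers of CA1 pyramidal neurons had a median of -0.67 with 3 of 5 called lower. All 10 microglia markers rose, with a median of 3.10, as did 7 of 8 astrocyte markers, with a median of 0.66. Of 8 endothelial markers 5 rose. Of 8 markers of pericytes and smooth muscle 3 rose and 2 were below 0, the lowest at -0.44. None of 8 oligodendrocyte or 5 blood markers was called. Over all tested genes 13.2% were called lower and 18.0% higher. The part of these cell types in the lower respiratory chain transcripts was not tested.

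Over 13 subunits encoded in the mitochondrial genome the median log2 fold change was -0.25, and 12 of them were below 0. Only 1 of the 13 was called lower, against 13.2% of all tested genes. This was mt-Nd4l, a membrane subunit of complex I, at -0.54 (edgeR adjusted p = 0.0234). Above 0 was mt-Atp6, a membrane subunit of ATP synthase, at 0.06. The medians per mouse were -0.03, -0.0021 and 0.03 in Sham mice and -0.24, -0.11 and -0.43 in BCAS mice, again lowest in BCAS mouse 3. The mitochondrial genes together took 6.94 ± 0.05% of counts in Sham mice and 6.22 ± 0.295% in BCAS mice (SD, n = 3, exact two-sided permutation p = 0.1).

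Of 39 tested assembly factors outside the rule, 8 fell and none rose, with a median of -0.23. Over all tested genes 13.2% were called lower, and the difference from this share was not tested. Ttc19, which helps to clear fragments of the Rieske protein from complex III, had the most negative value, -0.53 (edgeR adjusted p = 0.0104), and Cox20, a chaperone of a mitochondrially encoded complex IV subunit, the most positive, 0.82, at a Sham level of 0.275 CPM (edgeR adjusted p = 0.281). Among 11 regulators of mitochondrial biogenesis, none fell and 2 rose, a share near the 18.0% of all tested genes called higher. These were Pprc1, a coactivator related to PGC-1, at 0.38 (edgeR adjusted p = 0.0340), and Gabpa, the DNA-binding subunit of the transcription factor GABP, at 0.36 (edgeR adjusted p = 0.0366). Exons of Gabpa overlap those of Atp5j, and counting ignored strand. Their median was -0.013. Ppargc1a, which encodes PGC-1alpha, was at -0.21 (edgeR adjusted p = 0.0609) and Nrf1 at -0.02.

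Because many genes of the chain moved together, the sequence around their starts was searched on both strands. The letters sought are bound by factors long linked to respiratory chain genes. These were GCATGCGC (NRF1), CCGGAAG (GABP) and AAGATGGC (YY1), of which the first can match both strands at overlapping positions. Of the 100 tested genes 78 had 1 or more windows of 300 bases (250 before and 50 after the start) in the RefSeq promoter table (GRCm38.p6, the assembly of mm10), 83 windows in all. GCATGCGC was in 15.7% of these windows and in 2.71% of all 32851 windows in the table. CCGGAAG was in 21.7% against 8.86%, and AAGATGGC in 13.3% against 2.75%. Among the 34 windows of genes called lower, CCGGAAG was in 3 (8.82%), close to its share over all windows, GCATGCGC in 5 (14.7%) and AAGATGGC in 4 (11.8%). Among the 48 windows of genes not called these shares were 31.2%, 16.7% and 14.6%. At least 1 of the 3 was in 11 of the 34 windows of genes called lower (32.4%) and in 24 of the 48 windows of genes not called (50.0%). None of the 5 windows of alternative complex IV forms held any of them. A match describes letters only, and the table covers genes of all kinds, with no matching on base composition. The split into called and not called follows a threshold, and most genes not called also had fold changes below 0. Of the 100 tested genes 88 were below 0, while 39 were called lower. Differences in the shares of windows were not tested.

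The 250 bases before the start are shown for 5 genes on which the results turn, 5′ to 3′ on the strand of the gene, with matches in capitals. Cycs (chr6:50566570-50566819, minus strand) and Ndufaf4 (chr4:24897833-24898082, plus strand) were called lower and hold the NRF1 letters, in Ndufaf4 on both strands at once. Atp5l (chr9:44920743-44920992, minus strand), a membrane subunit of ATP synthase at -0.14 (edgeR adjusted p = 0.297), holds both NRF1 and GABP letters and was not called. Ndufv2 (chr17:66101560-66101809, minus strand), with the smallest adjusted p, and Cox6b2 (chr7:4753095-4753344, minus strand), which rose, hold none of the 3.
Cycs: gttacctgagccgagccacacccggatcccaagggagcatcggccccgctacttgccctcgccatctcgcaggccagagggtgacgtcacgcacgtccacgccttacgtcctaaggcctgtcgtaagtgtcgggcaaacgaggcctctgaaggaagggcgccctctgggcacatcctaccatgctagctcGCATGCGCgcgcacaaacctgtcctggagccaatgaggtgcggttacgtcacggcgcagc
Ndufaf4: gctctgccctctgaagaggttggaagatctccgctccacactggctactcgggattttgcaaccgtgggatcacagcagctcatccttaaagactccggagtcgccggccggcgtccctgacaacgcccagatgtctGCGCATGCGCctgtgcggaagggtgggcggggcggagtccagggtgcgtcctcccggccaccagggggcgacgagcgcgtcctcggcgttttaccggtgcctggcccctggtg
Atp5l: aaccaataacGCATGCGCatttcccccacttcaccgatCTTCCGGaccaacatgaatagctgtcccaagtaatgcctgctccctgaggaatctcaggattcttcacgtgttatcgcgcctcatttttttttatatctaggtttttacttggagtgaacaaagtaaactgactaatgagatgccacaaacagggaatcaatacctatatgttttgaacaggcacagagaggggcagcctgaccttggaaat
Ndufv2: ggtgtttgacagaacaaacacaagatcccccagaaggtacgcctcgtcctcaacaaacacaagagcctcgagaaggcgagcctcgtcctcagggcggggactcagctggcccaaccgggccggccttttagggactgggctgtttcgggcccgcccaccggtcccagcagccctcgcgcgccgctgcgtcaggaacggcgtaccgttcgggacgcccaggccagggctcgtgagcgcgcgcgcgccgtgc
Cox6b2: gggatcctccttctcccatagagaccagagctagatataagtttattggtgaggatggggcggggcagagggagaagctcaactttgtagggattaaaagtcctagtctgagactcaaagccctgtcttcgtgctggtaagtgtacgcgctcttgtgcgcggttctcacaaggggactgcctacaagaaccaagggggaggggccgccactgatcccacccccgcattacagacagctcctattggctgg

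How many genes passed the threshold depended on the mice and on the scaling, as the plot of calls by setting shows. Without Sham mouse 2 the number called lower was 10, without Sham mouse 3 it was 7 and without BCAS mouse 3 it was 19, at backgrounds of 7.39%, 6.58% and 9.26% over all tested genes. The median of the chain stayed between -0.33 and -0.22 when any 1 mouse was left out. Ndufv2, Cycs, Atp5f1, Ndufa4, Ndufa5, Ndufaf4 and Cox6a2 kept their calls without any 1 mouse. Other genes named above as having fallen lost their calls when 1 mouse was left out. Without Sham mouse 3 this held for Sdhb, Uqcrc2, Uqcrfs1, Uqcc1, Ndufa8, Ndufaf3, Ndufaf5, Cox7b, Atp5g1, Atp5g3 and Atp5s, with edgeR adjusted p from 0.0651 (Uqcrc2) to 0.162 (Cox7b). Without Sham mouse 2 it held for the same genes except Ndufaf5, with edgeR adjusted p from 0.0530 (Uqcrfs1) to 0.124 (Cox7b). Without Sham mouse 1 it held for Uqcc1 and Ndufaf5 (edgeR adjusted p of 0.125 and 0.0535). Without BCAS mouse 1 it held for Sdhb, Uqcc1, Ndufa8, Ndufaf3 and Cox7b, with edgeR adjusted p from 0.0572 (Ndufaf3) to 0.0893 (Uqcc1). Without BCAS mouse 3 it held for Uqcc1, Ndufa8, Ndufaf3, Ndufaf5, Cox7b, Atp5g1 and Atp5s, with edgeR adjusted p from 0.0525 (Ndufaf5) to 0.113 (Cox7b). Without BCAS mouse 2 none of these genes lost its call. The further called genes named above were run in the same way after their values were seen. Of these, Ttc19 kept its call without any 1 mouse, and with 5 mice mt-Nd4l was called only without BCAS mouse 2 (edgeR adjusted p up to 0.0896 otherwise). Cox5a, Cox5b and Cox7c were not called without Sham mouse 2 or Sham mouse 3, nor were Cox5a and Cox7c without BCAS mouse 3 or Cox5a without BCAS mouse 1 (edgeR adjusted p up to 0.107). With 5 mice Pprc1, which rose, was called only without BCAS mouse 1, and Gabpa only without Sham mouse 1 or BCAS mouse 2 (edgeR adjusted p up to 0.118 otherwise).

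**Figure D5:**
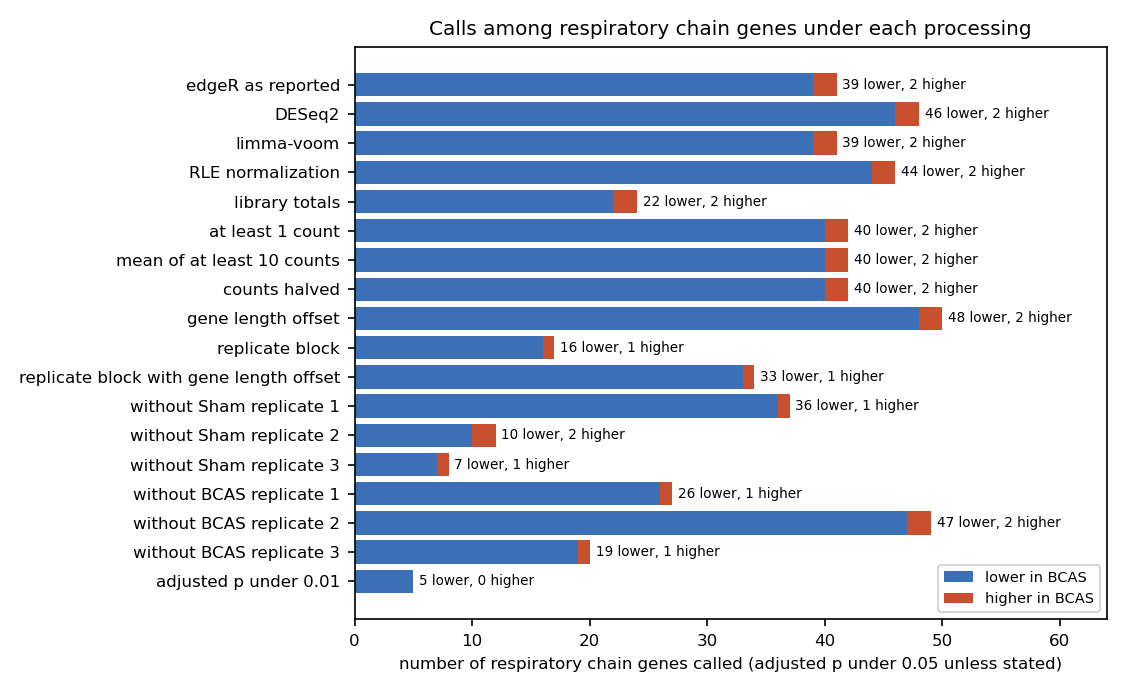
Number of respiratory chain genes called lower (blue) and higher (red) in BCAS mice (x axis) under each processing (y axis). The reported fit calls 39 lower and 2 higher, and the number called lower runs from 7 without Sham replicate 3 to 48 with an offset for gene length, apart from 5 at an adjusted p under 0.01. Of all tested genes 6.58%, 15.7% and 4.90% were called lower under these settings, so that the 7 and the 5 of 100 are near the background.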

How the data were processed

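The authors trimmed the reads with Trim Galore, aligned them to mm10 with HISAT2 and deposited raw counts per gene from featureCounts, not normalized. The submitters' notes give featureCounts 1.6.3, while the file headers give 2.0.3 and GENCODE release 20 for mouse. Per the headers, each mate counted as a read of its own, either strand was accepted, and reads mapping to several places or genes were dropped.

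From these counts, genes were kept by filterByExpr, normalized by TMM and tested with edgeR 4.0.16 (R 4.3.3, limma 3.58.1) without a replicate block. CPM on the log2 scale used a prior count of 2. FPKM used the gene lengths of the files. The common biological coefficient of variation was 0.161. Steps were tested on simulated data. Mice came from GEO's labels, 1 library each, so p-values measure the spread between these mice. No pair of libraries agreed within sampling noise. Isoform ratios and shares used exact permutation tests.

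Members and gene lists were chosen with earlier results of these data known. Named in each class were the smallest p, largest rise and fall, highest Sham FPKM, every gene called higher and all isoform pairs. Others, such as those that fill out a count or whose promoter is shown, were named after their values were seen. One of the genes this rule names is not reported here. Of the members, 32 share exon bases with another gene. Alternatives were DESeq2 1.42.0, limma-voom, other scalings and filters, halved counts, a gene length offset, a replicate block, a stricter threshold and leaving out each mouse.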

Additional observations from a re-analysis of the deposited data

How the results depend on the processing

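The median log2 fold change of the tested respiratory chain genes stayed below 0 under every alternative run, from -0.33 without Sham mouse 1 to -0.19 with library totals, and its difference from the median of all tested genes ran from -0.35 to -0.24. The number called lower was 39 with edgeR and 46 with DESeq2, at backgrounds of 13.2% and 13.5% of all tested genes. It was 22 with library totals (9.61%), 16 with the replicate block (9.40%), 5 at an adjusted p under 0.01 (4.90%), and 7 to 47 when 1 mouse was left out (6.58% to 16.1%). The 5 and the 7 of 100 are near their backgrounds. The number called higher was 1 with the replicate block, alone or with the gene length offset, 0 at an adjusted p under 0.01, and 1 to 2 when 1 mouse was left out. The number past both thresholds was 2 with library totals, 0 with the replicate block, alone or with the gene length offset, 0 at an adjusted p under 0.01, and 0 to 1 when 1 mouse was left out. The cause of these differences was not tested. The replicate numbers share no animal: same-numbered libraries had residual correlations of 0.036, -0.314 and -0.158, so the block pairs mice by number only. The file headers number the Sham libraries 1 to 3 and the BCAS libraries 2 to 4. Libraries that share a number there correlated at 0.223 (Sham mouse 2 with BCAS mouse 1) and 0.347 (Sham mouse 3 with BCAS mouse 2). The other pairs of a Sham with a BCAS library ran from -0.314 to 0.143. Choroid plexus markers were high in Sham mouse 2 (2.32) and BCAS mouse 1 (2.84). They were low in Sham mouse 3 (-2.71) and BCAS mouse 2 (-2.64). The part of choroid plexus in these correlations was not tested. No source says that either numbering marks a shared litter, batch or day, and no fit was made with the header numbers.

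Single genes with fold changes near 0 changed sign, and none of them was called. With the gene length offset Sdhc was at -0.0051, or at -0.0046 with the replicate block as well. Cox8b was at 0.084 with library totals, 0.016 with counts halved, 0.47 with the replicate block and 0.45 with the block and the length offset. When 1 mouse was left out, the log2 fold changes ran from -0.0056 to 0.13 for Atp5g2, from -0.056 to 0.44 for Cox4i2, from -0.0080 to 0.075 for Cox7a2l, from -0.59 to 1.87 for Cox8b, from -0.11 to 0.18 for Ndufa2, from -0.062 to 0.29 for Ndufaf6 and from -0.045 to 0.088 for Sdhc. The difference in the log2 ratio of Atp5g1 to Atp5g3 ran from -0.022 to 0.058.

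Reads shared with near-identical copies, strand and the annotation in use limit single genes, and low counts limit the alternative complex IV forms other than Cox7a2l. A library with 3 counts or fewer was at the limit of detection, 0.0874 to 0.0994 CPM, which covers counting error only.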
